A study of Mus musculus with 9 samples.

Results

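The comparison of livers from mice on a methionine- and choline-deficient (MCD) diet with normal livers was followed across every gene whose mean over both groups, the baseMean of the deposited table, was at least 10 normalised reads. This held for 12655 of the 16374 genes in that table. The size of a difference is given as the log2 ratio of the group means, model over normal, with 1 added to each mean. RNA was taken from liver tissue of C57BL/6 mice in a series of 9 samples in 3 groups. The normal group, 3 libraries titled wt (wild type), was given saline, and the model group, 3 libraries, was fed the MCD diet. The third group, fed the same diet and treated with sarsasapogenin, was not used here. The labels give no age, sex or diet time for either group and no genotype for the model group, and do not say that the libraries come from separate mice, so p-values measure the spread between these libraries, which may be technical.

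Methionine and choline are needed to make phosphatidylcholine, which hepatocytes use to export fat as lipoprotein particles, and methionine is the source of the methyl donor S-adenosylmethionine. Mice fed without them gain hepatic fat, inflammation and scarring within a liver whose hepatocytes normally carry out amino acid breakdown, bile acid synthesis, drug metabolism and the making of plasma proteins. The tissue also holds resident macrophages (Kupffer cells), sinusoidal endothelium, stellate cells and bile duct cells, all of which a whole-liver library mixes. A lower level in such a library can come from fewer cells of a type or from less RNA per cell, and these cannot be told apart.

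Reads were counted per gene by the authors, divided by a size factor for each library and deposited as group means. Whole reads per library were worked back from the 15 digits of those means, as described under the processing. The libraries of a group are called a, b and c in descending order of size factor, which carries no link to the replicate numbers of the labels. Model libraries held 12503819, 13320823 and 14939063 reads, and the normal group 41900000 to 47900000 in all. The split among normal libraries could not be settled for 189 of the most abundant genes, which were left untested, so 12466 genes were tested. Normal library c correlated with the other normal libraries at 0.932 and 0.923 over genes, against 0.974 between a and b. Model library c correlated with the other model libraries at 0.925 and 0.937, against 0.979 between a and b, and lay closer to the normal libraries (0.888 to 0.899) than model a and b did (0.804 to 0.834). Neutrophil markers were also far higher in normal c: the 12 measured ones of 13 summed to 137 and 304 normalised reads in normal a and b, 9371 in normal c and 1476 to 3366 in the model libraries, and none was at 0 in both groups. All 12 hepatocyte markers searched for, Alb, Ttr, Apoa1 and Apob among them, were present in both groups. Only 3 of 16 pancreatic acinar markers reached the minimum. Family counts are also given without library c of both groups where they then moved by over 1.5 times, or from 0 to more than 1.

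Promoters of 8 genes are shown because 3 of the families described below hold one short motif more often than promoters at large. These pairs of family and motif were picked from a search of a longer list of motifs in every family with at least 8 promoters. No test was run, so a high share in a picked pair is a description only. Each window runs from 250 bases before to 50 bases after the RefSeq start, 300 bases in all, on GRCm38.p6, and is written 5′ to 3′ on the strand of the gene with motif matches on either strand in capitals. The first group holds TTTGAA, the core of the cell cycle homology region (CHR): Cdca3 at chr6:124829926-124830225 (plus strand, match beginning at base 31 after the start), Cdca8 at chr4:124936868-124937167 (minus strand, base 14 after the start) and Ncapg2 at chr12:116405186-116405485 (plus strand, 18 bases before the start). H2-Aa at chr17:34287774-34288073 (minus strand, match 48 bases before the start) and H2-Eb1 at chr17:34305617-34305916 (plus strand, 2 matches, the first 59 bases before the start) hold CCAAT, the box bound by NF-Y. Psmc1 at chr12:100109952-100110251 (plus strand, 28 bases before the start) and Psmd2 at chr16:20651402-20651701 (plus strand, 26 bases before the start) hold CCGGAAG, a binding site of ETS factors. Psme1 at chr14:55578244-55578543 (plus strand, base 10 after the start) holds an interferon-stimulated response element (ISRE), read as GAAA, any 2 bases, GAAA.
Cdca3: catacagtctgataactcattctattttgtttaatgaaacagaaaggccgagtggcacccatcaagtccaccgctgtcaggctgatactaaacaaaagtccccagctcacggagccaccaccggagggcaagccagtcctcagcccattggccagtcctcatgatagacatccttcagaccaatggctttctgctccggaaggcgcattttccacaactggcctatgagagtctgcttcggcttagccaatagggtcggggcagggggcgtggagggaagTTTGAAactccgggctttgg
Cdca8: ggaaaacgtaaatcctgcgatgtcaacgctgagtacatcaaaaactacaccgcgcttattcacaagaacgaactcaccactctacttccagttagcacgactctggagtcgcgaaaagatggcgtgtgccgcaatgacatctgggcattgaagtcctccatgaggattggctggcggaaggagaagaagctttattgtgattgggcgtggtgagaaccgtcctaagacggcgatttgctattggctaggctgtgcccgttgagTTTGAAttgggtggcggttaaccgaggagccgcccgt
Ncapg2: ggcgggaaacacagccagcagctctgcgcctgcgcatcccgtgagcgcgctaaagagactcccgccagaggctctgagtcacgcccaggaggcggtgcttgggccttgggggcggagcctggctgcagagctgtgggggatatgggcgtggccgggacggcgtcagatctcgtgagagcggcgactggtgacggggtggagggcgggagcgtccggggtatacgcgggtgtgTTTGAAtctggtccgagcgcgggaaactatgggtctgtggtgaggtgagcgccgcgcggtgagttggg
H2-Aa: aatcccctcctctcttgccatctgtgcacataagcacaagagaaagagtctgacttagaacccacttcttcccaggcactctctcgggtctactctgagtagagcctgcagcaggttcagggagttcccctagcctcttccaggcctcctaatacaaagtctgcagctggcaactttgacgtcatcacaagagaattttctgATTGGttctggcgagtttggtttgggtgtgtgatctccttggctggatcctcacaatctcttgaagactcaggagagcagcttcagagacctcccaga
H2-Eb1: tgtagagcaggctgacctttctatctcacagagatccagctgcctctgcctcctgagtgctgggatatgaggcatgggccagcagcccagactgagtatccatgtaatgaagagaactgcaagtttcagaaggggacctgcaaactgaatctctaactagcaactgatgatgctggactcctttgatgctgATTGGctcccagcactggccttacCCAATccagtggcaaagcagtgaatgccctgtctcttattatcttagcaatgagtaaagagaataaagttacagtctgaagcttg
Psmc1: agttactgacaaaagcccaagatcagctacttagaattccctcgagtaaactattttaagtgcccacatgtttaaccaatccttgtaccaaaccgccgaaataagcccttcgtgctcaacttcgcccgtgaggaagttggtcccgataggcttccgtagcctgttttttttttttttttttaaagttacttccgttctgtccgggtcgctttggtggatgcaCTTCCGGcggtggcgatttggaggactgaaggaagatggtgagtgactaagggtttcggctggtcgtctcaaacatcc
Psmd2: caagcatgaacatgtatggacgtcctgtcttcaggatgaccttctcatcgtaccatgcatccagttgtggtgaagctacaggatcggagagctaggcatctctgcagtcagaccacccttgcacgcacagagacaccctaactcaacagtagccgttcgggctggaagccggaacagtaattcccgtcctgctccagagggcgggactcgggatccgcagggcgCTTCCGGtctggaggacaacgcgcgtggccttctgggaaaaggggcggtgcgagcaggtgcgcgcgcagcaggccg
Psme1: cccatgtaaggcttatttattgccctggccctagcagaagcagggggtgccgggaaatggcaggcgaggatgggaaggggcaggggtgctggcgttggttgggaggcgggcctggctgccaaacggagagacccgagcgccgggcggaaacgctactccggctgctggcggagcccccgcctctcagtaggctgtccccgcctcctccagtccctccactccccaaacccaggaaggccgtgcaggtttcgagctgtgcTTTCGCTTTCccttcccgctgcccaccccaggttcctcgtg

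TTTGAA was found in 20 of the 44 centromere and spindle promoters matched by symbol (45.5%), against 18.1% of all 27025 promoters and 12.2% of those of tested genes, and in the window from 100 bases before the start in 18 of 44 (40.9%, against 8.08%). CCAAT was found in 14 of 15 promoters of major histocompatibility (MHC) genes (93.3%), against 37.9% of all promoters and 38.7% of those of tested genes. CCGGAAG was found in 11 of 37 proteasome promoters (29.7%), against 9.12% of all promoters but 18.1% of those of tested genes, so the tested genes as a whole also held it more often. The ISRE pattern was found in 4 proteasome promoters (10.8%), against 3.49% of all and 3.38% of tested promoters. A match describes the sequence only and is not evidence of binding. CCAAT does not overlap the other motifs in its letters, and each motif was searched on both strands.

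Over the whole comparison, similar numbers of genes went up and down, but at different levels of expression. Of the 12466 genes tested with limma, 2514 rose (20.2%) and 2361 fell (18.9%) at an adjusted p under 0.05, 39.1% called in all, and 7591 did not pass. Genes that rose did so by a median log2 fold change of 1.73 and genes that fell by -0.90. The group means differed at least 2-fold upwards for 2512 members (19.8%) and downwards for 1187 (9.38%), at least 8-fold upwards for 339 and downwards for 62, and at least 32-fold for 33 and 23. All 3 model libraries lay above all 3 normal libraries for 3431 genes (27.5%) and below them for 3268 (26.2%), and the groups overlapped in 67 of the 4875 called genes. Leaving out normal library a gave 1648 risen and 1248 fallen genes, leaving out model a 1319 and 1311, leaving out model b 1265 and 1164, and leaving out normal b gave 1507 fallen genes. Without library c of both groups 3732 genes rose and 3480 fell.

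The ratio depended on how abundant a gene was. Among 1495 members with a mean of 10 to 30 normalised reads the median log2 ratio was 1.1, and 26% of those tested rose against 1.61% that fell. Around the middle, from 100 to 300, the median was 0.02 in 3654 members, with 21.7% risen and 15.4% fallen. From 1000 to 3000 the median was -0.48 in 1182 members, 9.14% rose and 43.0% fell, and for the 162 members above 10000, nearly all untested, the median was -0.99. The 200 members just above the minimum, with means of 10 to 11.9, had a median of 1.06, and the 200 genes just below it, with means of 8.22 to 9.97, had a median of 1.25. The summed group means differed too, the normal sum being higher by 0.57 on the log2 scale. Scaling both groups to the same sum moved the median ratio of all members from 0.01 to 0.57 and gave 5761 risen and 560 fallen genes, so a fall below is relative to the authors' size factors, and the fallen count of a family under equal sums is given where it moved by over 1.5 times. No gene called in the main comparison was called the opposite way under any of the settings tried.

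**Figure D1:**
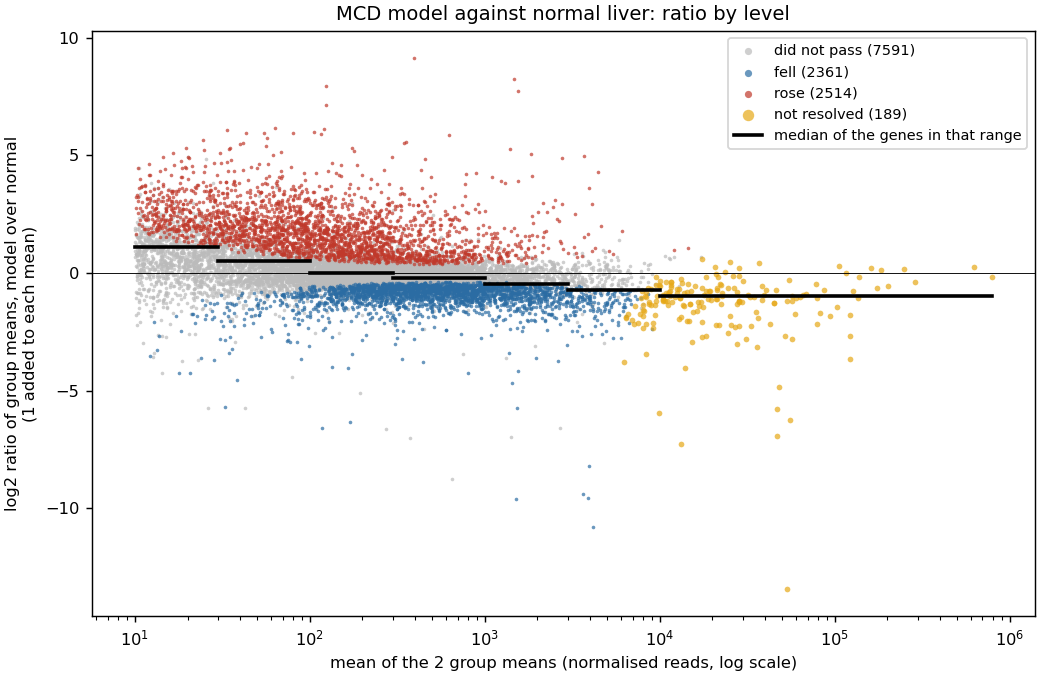
Log2 ratio of the deposited group means, model over normal (1 added to each), against the mean of both group means on a log axis, 1 point per member, coloured by the limma call. Black lines give the median in each range of level and run from 1.1 at 10 to 30 normalised reads down to -0.99 above 10000.

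The largest rises were in genes of very different kinds, most of them nearly silent in normal liver. Mmp12, the macrophage metalloelastase, was at 11.8, 7.18 and 7.34 normalised reads in the normal libraries a, b and c and 2846, 2674 and 3284 in the model libraries a, b and c (limma log2 fold change (FC) 8.26 ± 0.22, adjusted p = 3.08e-06), where ± gives the standard error (SE). Gpnmb, a glycoprotein of lipid-laden macrophages, was at 11.8, 15.6 and 13.5 in normal and 3177, 2405 and 3682 in model libraries (limma log2 FC 7.71 ± 0.20, adjusted p = 3.08e-06). Both were tight within groups. Groups without overlap were a condition for every gene listed among the 15 largest rises or falls. Cyp2a4, a steroid hydroxylase whose reads may be shared with the near-identical Cyp2a5, was at 0, 1.2 and 0 in normal and 141, 427 and 1796 in model libraries with wide differences among the model libraries (limma log2 FC 8.52 ± 0.88, adjusted p = 0.00121); 1 read against 2707 is a ratio of 1966 with a 95% counting interval of 353 to 77677. Vmn2r3, named as a vomeronasal receptor, had no read in the normal libraries and 869 in the model libraries, at least 210-fold higher over a floor of 3 reads for the group. Timp1, the inhibitor of metalloproteinases, had 2 normal and 905 model reads, a ratio of 329 (90.7 to 2718). Intervals and floors cover counting error only.

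Several further genes among the 15 largest rises were also low in every normal library. Sprr1a, an epithelial envelope protein, was at 0, 4.79 and 0 in normal and 184, 209.9 and 79.8 in model libraries, and Nrg1, a ligand of the ERBB receptors, at 0, 4.79 and 3.67 in normal and 209.7, 372 and 101 in model libraries. Akr1c18, which inactivates progesterone, was at 0, 2.39 and 0 in normal and 60.6, 197 and 122 in model libraries. Ubd, a ubiquitin-like modifier that sends proteins to the proteasome, was at 15, 19.1 and 25.7 in normal and 1638, 1301 and 755 in model libraries (limma log2 FC 5.84 ± 0.32, adjusted p = 0.000185). Nupr1, a stress-induced chromatin protein, was at 11.8, 18 and 11 in normal and 663, 700.0 and 721 in model libraries (limma log2 FC 5.61 ± 0.23, adjusted p = 6.63e-05). All of these were called in every fit that left out 1 library. Col1a1, the collagen of scars, was at 96.3, 215 and 2.45 in normal and 5440.1, 4473 and 764 in model libraries (limma log2 FC 5.99 ± 1.47, adjusted p = 0.0166), with adjusted p = 0.0712 and 0.0619 without model a and model b; the normal and the model library c each held the lowest value of their group.

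Among the largest falls were carboxylesterases, cytochromes P450 of the CYP2C family, urinary proteins and an anion transporter. Ces3b, which hydrolyses stored fat, was at 6124, 6253 and 2175 in normal and 432, 222 and 446 in model libraries (limma log2 FC -3.64 ± 0.45, adjusted p = 0.00195). Ces2a, a related esterase, was at 3361, 3000.5 and 1195 in normal and 189, 160.0 and 364 in model libraries (limma log2 FC -3.36 ± 0.44, adjusted p = 0.00224). Cyp2c54, one of a cluster of near-identical genes between which reads may be shared, was at 4741, 2984 and 3101 in normal and 104, 223 and 561 in model libraries (limma log2 FC -3.90 ± 0.54, adjusted p = 0.00262). The groups do not overlap in any of them, which was a condition for this list. Ppp1r3c, which targets a phosphatase to glycogen, was at 518, 525 and 827 in normal and 68.6, 41.5 and 36.4 in model libraries (limma log2 FC -3.67 ± 0.29, adjusted p = 0.000692). Mup15 and Mup12, major urinary proteins with near-identical sequences, and the anion transporter Slco1a1 were higher in normal a and b but close to the model level in normal c: Mup15 was at 11519, 13476 and 13.5 in normal and 2.39, 3.39 and 5.32 in model libraries and Slco1a1 at 5197, 3644 and 132 in normal and 43.9, 30.5 and 88.7 in model libraries. The Mup15 call (limma adjusted p = 0.0288) went to 0.0958, 0.087, 0.0953 and 0.0809 without normal a, normal b, model a and model b, and Slco1a1 (0.0215) to 0.0703, 0.0678, 0.0764 and 0.0749.

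**Figure D2:**
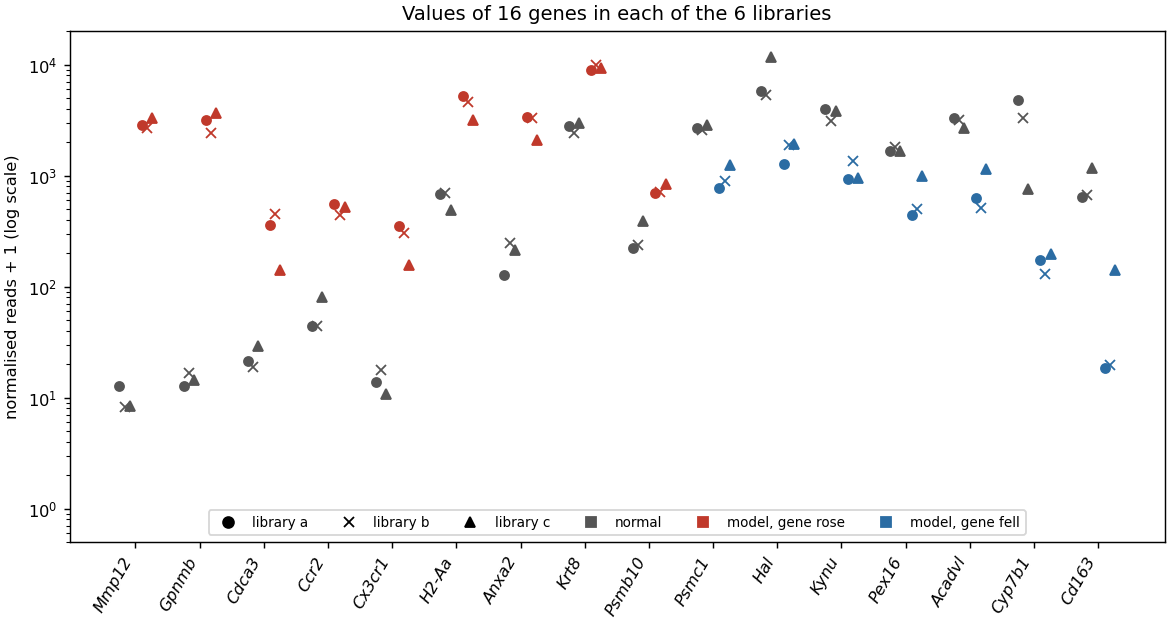
Normalised reads plus 1, on a log axis, for 16 genes in each of the 6 libraries: grey for normal, red for model where the gene rose, blue for model where it fell, with the marker shape giving library a, b or c. Mmp12 runs from 7.18 to 11.8 in the normal and 2674 to 3284 in the model libraries, and the groups do not overlap in any gene plotted, although model c often lies nearest the normal libraries.

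Gene families were then read by symbol, 111 of them with at least 8 tested members. The median ratio was above 0 in 59 of these and below 0 in 52, and more members rose than fell in 59, more fell than rose in 41, with 11 even. The families with the highest shares of risen members were keratins, MS4A proteins, immediate early genes, centromere and spindle genes, annexins, ADAM proteases and several families of leukocyte receptors and ligands. The highest shares of fallen members were found in amino acid catabolism, coagulation factors, peroxins, glucuronosyltransferases and the proteasome. These shares were not matched for level. Among all genes tested with means of 1000 to 3000 normalised reads 43.0% fell and 9.14% rose, and at 10 to 30 1.61% fell and 26% rose. How much of a family's share goes with the level of its members was not tested.

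**Figure D3:**
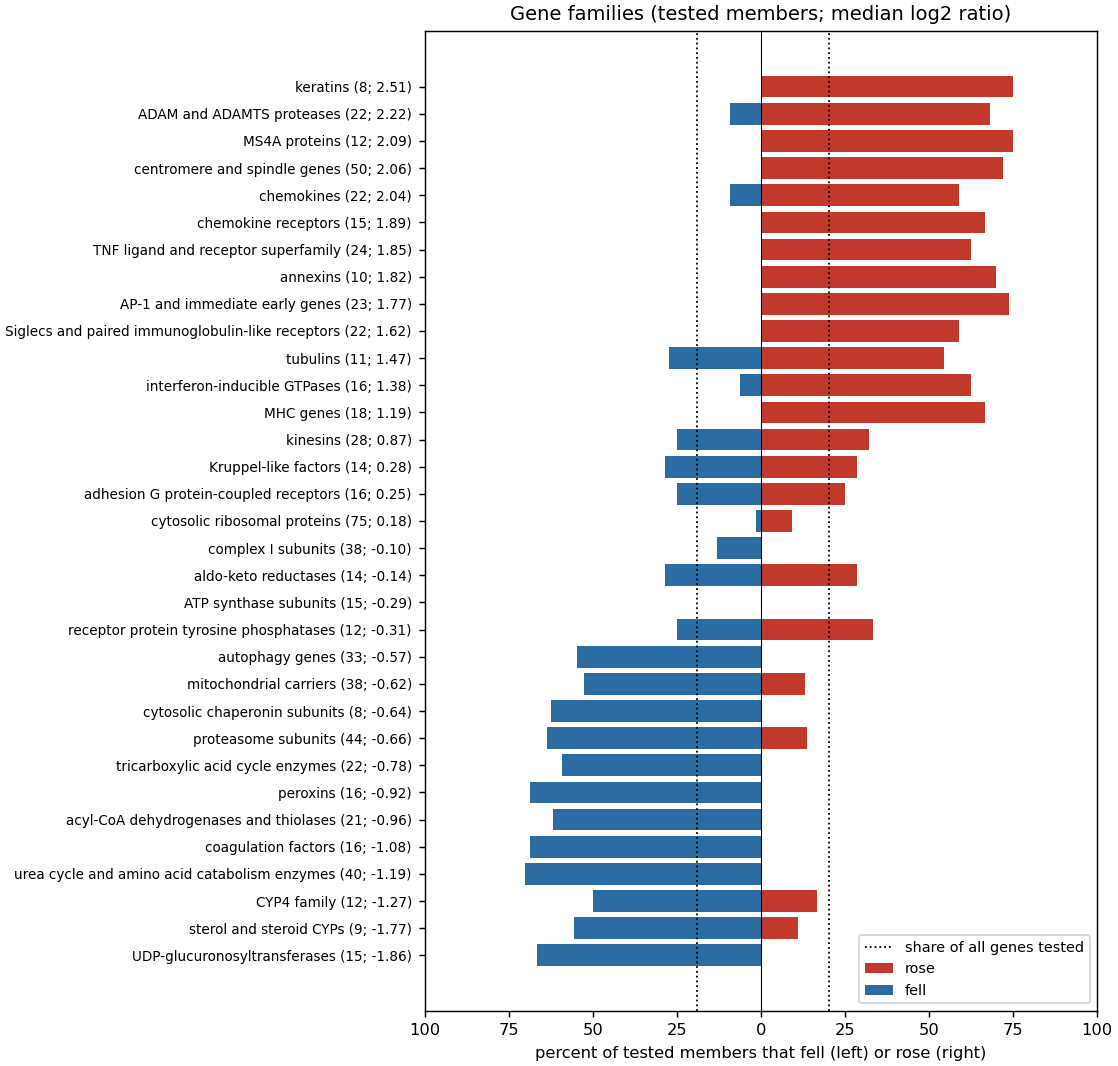
Percent of tested members that rose (right, red) or fell (left, blue) in 33 families named by share called, with tested members and median log2 ratio in brackets, ordered by that median from 2.51 for keratins to -1.86 for UDP-glucuronosyltransferases. Dotted lines give the shares over all genes tested, 20.2% risen and 18.9% fallen, which are not matched to the level of a family.

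Chemokines, which draw leukocytes into tissue, rose in 13 of 22 tested members and fell in 2, with a median log2 ratio of 2.04 against 0.01 over all members. Ccl3, a macrophage inflammatory protein, was at 0, 3.59 and 0 in normal and 67, 50.8 and 47.9 in model libraries (limma log2 FC 5.06 ± 0.75, adjusted p = 0.00329); its 3 normal against 198 model reads give a ratio of 47.9 (16.2 to 234). Ccl2, which recruits monocytes, was at 4.28, 0 and 6.12 in normal and 97.3, 123 and 70.1 in model libraries (limma log2 FC 4.83 ± 0.76, adjusted p = 0.00393). Cxcl2, a neutrophil attractant, was at 1.07, 1.2 and 1.22 in normal and 48.6, 77 and 22.2 in model libraries (limma log2 FC 4.37 ± 0.64, adjusted p = 0.0031). These ligands were near 0 in every normal library, normal c included. Cxcl9 and Cxcl10, both induced by interferon, were at 155, 117.3 and 62.4 in normal and 636, 421 and 500.2 in model libraries and at 34.2, 41.9 and 40.4 in normal and 201, 151 and 172 in model libraries in that order (limma log2 FC 2.28 ± 0.33, adjusted p = 0.00303 and limma log2 FC 2.14 ± 0.22, adjusted p = 0.00125). Of the members that fell, Cxcl12, the homeostatic ligand of CXCR4, was at 3964, 4002 and 3808 in normal and 2186, 1435 and 3250.4 in model libraries (limma log2 FC -0.86 ± 0.29, adjusted p = 0.048), a call lost without any library but model c and under equal sums (adjusted p = 0.426). Cxcl13, a B cell attractant, was at 67.4, 63.4 and 366 in normal and 6.38, 4.23 and 26.6 in model libraries (limma log2 FC -3.52 ± 0.84, adjusted p = 0.0153), with adjusted p = 0.0619 and 0.0566 without model a and model b. Without either of those libraries no chemokine fell, and 1 fell without normal a, b or c or under equal sums.

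Chemokine receptors rose in 10 of 15 tested members, with a median of 1.89 and none fallen. Cx3cr1, the fractalkine receptor of monocytes and macrophages, was at 12.8, 16.8 and 9.79 in normal and 348, 305 and 156 in model libraries (limma log2 FC 4.21 ± 0.37, adjusted p = 0.000769), and its ligand Cx3cl1 at 6.42, 12 and 6.12 in normal and 161, 175 and 28.4 in model libraries (limma log2 FC 3.42 ± 0.71, adjusted p = 0.0094). Ccr2, the receptor for CCL2, was at 42.8, 43.1 and 79.6 in normal and 553, 445 and 519.7 in model libraries (limma log2 FC 3.23 ± 0.26, adjusted p = 0.000727). Receptor and ligand both rose in these pairs, and likewise for Cxcr3, with 13.9, 10.8 and 12.2 in normal and 56.6, 37.2 and 53.2 in model libraries (limma log2 FC 1.89 ± 0.36, adjusted p = 0.0072), which binds CXCL9 and CXCL10. Cxcr6, at 24.6, 14.4 and 18.4 in normal and 63.8, 58.4 and 67.4 in model libraries (limma log2 FC 1.70 ± 0.32, adjusted p = 0.00714), rose along with its ligand Cxcl16, at 70.6, 126 and 75.9 in normal and 469, 339 and 239 in model libraries (limma log2 FC 1.93 ± 0.31, adjusted p = 0.00409). Ccr7, which guides dendritic cells to lymph nodes, was at 5.35, 2.39 and 4.9 in normal and 65.4, 73.6 and 49.7 in model libraries (limma log2 FC 3.65 ± 0.46, adjusted p = 0.00201). Cxcr4 rose too (limma log2 FC 2.23 ± 0.42, adjusted p = 0.00719), while its ligand Cxcl12, described above, fell. The Cxcl12 call was lost without any library but model c. Ligand and receptor thus did not move together in every pair, and the pairs named here were chosen after their values were seen. Counts of risen receptors were 7 to 11 when each library was left out. Markers of other cells rose too. T and NK cell markers rose in 9 of 12 measured (sums 132 to 167 in normal, 650.1 to 841 in model libraries). Dendritic cell markers rose in 9 of 10, or in 3 and 4 without model a and model b (sums 1092 to 2231 in normal, 3687 to 4587 in model libraries). None was at 0 in both groups. The dendritic list includes Ccr7, which is also counted among the receptors, so these counts overlap. The part of these cells in the result was not tested.

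Surface proteins of leukocytes rose as families. MS4A proteins, tetraspan membrane proteins of which many sit on macrophages and lymphocytes, rose in 9 of 12 tested members, with a median of 2.09. Ms4a7, a macrophage member, was at 4.28, 19.1 and 23.3 in normal and 375, 364 and 119.7 in model libraries (limma log2 FC 4.22 ± 0.67, adjusted p = 0.00396). Ms4a4a was at 12.8, 12 and 40.4 in normal and 162, 197 and 176 in model libraries (limma log2 FC 3.19 ± 0.45, adjusted p = 0.00284). Siglecs and paired immunoglobulin-like receptors rose in 13 of 22, with 7, 8 and 8 risen without model a, model b and normal a. Cd300lb, an activating myeloid receptor, was at 17.1, 16.8 and 25.7 in normal and 207, 167 and 159.6 in model libraries (limma log2 FC 3.12 ± 0.27, adjusted p = 0.000769). Lilr4b and the inhibitory receptor Lilrb4a are alike enough that reads may be shared. They were at 58.8, 58.6 and 158 in normal and 1048, 803 and 989.8 in model libraries and at 18.2, 18 and 82 in normal and 355, 254 and 250.1 in model libraries. Normal c was the highest normal library for both, and the groups still did not overlap. Itgax, the integrin CD11c, was at 12.8, 19.1 and 20.8 in normal and 631, 559 and 517 in model libraries (limma log2 FC 4.96 ± 0.24, adjusted p = 0.000113).

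Tumour necrosis factor ligands and receptors rose in 15 of 24 tested members, a median of 1.85, with 8, 9 and 9 risen without model a, model b and normal a. Tnf, the founding ligand, was at 2.14, 1.2 and 3.67 in normal and 50.2, 33 and 24.8 in model libraries (limma log2 FC 3.48 ± 0.59, adjusted p = 0.00485). Ltb, lymphotoxin beta, was at 21.4, 14.4 and 23.3 in normal and 188, 168 and 89.6 in model libraries (limma log2 FC 2.81 ± 0.36, adjusted p = 0.00216). Tnfrsf10b, a death receptor, was at 4.28, 3.59 and 2.45 in normal and 69.4, 94 and 24.8 in model libraries (limma log2 FC 3.67 ± 0.60, adjusted p = 0.00431). Tnfrsf12a, the receptor of TWEAK, which is found on regenerating epithelium, was at 227, 139 and 330.5 in normal and 1341, 1769.9 and 1005 in model libraries (limma log2 FC 2.61 ± 0.33, adjusted p = 0.00206). Tnf and Tnfrsf10b were close to 0 in every normal library, so their folds rest on few normal reads.

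MHC genes, which display peptides to T cells, rose in 12 of 18 tested members, with a median of 1.19 and none fallen. The class II genes accounted for 6 of the 12, of 7 tested, at a median of 2.32. H2-Aa, whose promoter is printed above, was at 676, 695 and 492 in normal and 5188, 4562 and 3198 in model libraries (limma log2 FC 2.78 ± 0.23, adjusted p = 0.000727). H2-Eb1 was at 533, 495 and 417 in normal and 4837, 4076 and 2474 in model libraries (limma log2 FC 2.93 ± 0.25, adjusted p = 0.000769). Model c was the lowest model library for both and still several-fold above the normal libraries. Of the 14 MHC promoters with CCAAT, 9 belonged to risen genes and 5 to genes that did not pass. H2-M2, a class I-like gene, was at 0, 0 and 4.9 in normal and 112, 129 and 90.5 in model libraries (limma log2 FC 5.93 ± 0.76, adjusted p = 0.00212). MHC genes are near-identical in part, so reads may be shared among them. B2m, the common class I subunit, is one of the abundant untested genes: its group mean was 31586 in normal and 42694 in model livers.

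Interferon-inducible GTPases rose in 10 of 16 tested members, but their subgroups differed in count. The guanylate-binding proteins, which coat intracellular microbes, rose in 8 of 10. Gbp5 was at 13.9, 22.7 and 9.79 in normal and 90.1, 73.6 and 75.4 in model libraries (limma log2 FC 2.36 ± 0.38, adjusted p = 0.00396). Gbp3 was at 101, 89.8 and 89.3 in normal and 366, 282 and 282 in model libraries (limma log2 FC 1.71 ± 0.18, adjusted p = 0.0012). Gbp2b was the exception at 29.9, 38.3 and 55.1 in normal and 12.8, 11 and 23.9 in model libraries (limma log2 FC -1.35 ± 0.44, adjusted p = 0.0438), a call lost when any library but model c was left out and under equal sums. Tgtp2, a T cell-specific GTPase close in sequence to Tgtp1, was at 26.7, 13.2 and 13.5 in normal and 101, 92.3 and 71.8 in model libraries (limma log2 FC 2.31 ± 0.37, adjusted p = 0.00396). None of the 4 tested genes of the Irgm and Iigp groups passed in either direction, with log2 ratios from -0.45 to 0.52 (1 at an unadjusted p under 0.05). In other fits 2 rose under equal sums, 1 rose without model b, 1 fell without model c and 2 fell without library c of both groups. Over the whole family 3 genes fell without both c libraries, against 1 (none under equal sums). The difference between the subgroups was not tested. Irf1, a transcription factor induced by interferon, was at 143, 219 and 266 in normal and 613, 456 and 545 in model libraries (limma log2 FC 1.39 ± 0.24, adjusted p = 0.00521).

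Markers of Kupffer cells fell in 4 of 8 (2 without model b), while the 3 genes of the complement C1q complex, also made by macrophages, rose. The summed level of the markers was 5309, 5357 and 8643 in normal and 2256, 2396 and 5334 in model libraries, so model c lay within the range of the normal group. Cd163, the scavenger receptor for haemoglobin, was at 638, 667 and 1174 in normal and 17.5, 18.6 and 140.1 in model libraries (limma log2 FC -4.42 ± 0.74, adjusted p = 0.00465). Clec4f, a lectin restricted to Kupffer cells, was at 2048, 1853 and 1999 in normal and 759, 856 and 1125 in model libraries (limma log2 FC -1.12 ± 0.17, adjusted p = 0.00375). Timd4, a receptor for dying cells, was at 128, 95.7 and 174 in normal and 2.39, 6.77 and 43.5 in model libraries (limma log2 FC -3.62 ± 0.85, adjusted p = 0.0144, 0.0544 without model b). Model c had the highest model value in all 3. Adgre1, the gene of the macrophage antigen F4/80, did not pass at 228, 208 and 264 in normal and 175, 161 and 234 in model libraries (limma log2 FC -0.31 ± 0.19, adjusted p = 0.235), and Marco, at 129, 139 and 777 in normal and 144, 120.2 and 844 in model libraries, differed more between libraries than between groups. C1qa rose from 821, 797 and 1135 to 2621, 2150.0 and 1831 (limma log2 FC 1.26 ± 0.20, adjusted p = 0.00396), and C1qb and C1qc rose as well (log2 fold changes 1.27 and 1.03).

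Immediate early genes, transcription factors switched on within minutes of a stimulus, rose in 17 of 23 tested members with a median of 1.77, and none fell. The count was 10 without normal a, 10 without model b and 11 without model a. Atf3, a stress-responsive member, was at 65.2, 57.4 and 72.2 in normal and 689.7, 979 and 763 in model libraries (limma log2 FC 3.61 ± 0.18, adjusted p = 0.000146). Egr2, a zinc finger factor, was at 6.42, 2.39 and 0 in normal and 109, 94 and 64.7 in model libraries (limma log2 FC 4.91 ± 0.75, adjusted p = 0.00356). Jun and Fos, the partners in the AP-1 complex, were at 609, 408 and 382 in normal and 1064, 1281 and 1106 in model libraries and at 64.2, 32.3 and 63.6 in normal and 131, 258 and 209 in model libraries (limma log2 FC 1.33 ± 0.20, adjusted p = 0.00331 and limma log2 FC 1.89 ± 0.36, adjusted p = 0.00702). The groups did not overlap in these. Myc was at 82.3, 102 and 102 in normal and 374, 428 and 316 in model libraries (limma log2 FC 1.95 ± 0.18, adjusted p = 0.000936).

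The cytoskeleton changed by isotype. Keratins, the intermediate filaments of epithelia, rose in 6 of 8 tested members, with 2 risen without model a, 2 without model b and 3 without normal a. Krt8, the hepatocyte keratin, was at 2803, 2443 and 3006 in normal and 8959, 10013 and 9399 in model libraries (limma log2 FC 1.79 ± 0.20, adjusted p = 0.00142). The bile duct keratin Krt19 was at 11.8, 22.7 and 6.12 in normal and 189.8, 203 and 31 in model libraries (limma log2 FC 3.06 ± 0.78, adjusted p = 0.0186), with model c far below the other model libraries and adjusted p = 0.0557, 0.0813 and 0.0766 without normal a, model a and model b. Cholangiocyte markers rose in 8 of 11 measured (1 without model a, model b or normal a, 5 without normal b or normal c), their sums being 704, 1100 and 1284 in normal and 11431, 12894 and 2458 in model libraries, none at 0 in both groups. Krt7 and Krt19 are in both this marker list and the keratin family, so these counts overlap. The part of cholangiocytes in the keratin counts was not tested. Krt20 had no read in the normal and 120 in the model libraries, at least 29-fold higher.

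Tubulins, the subunits of microtubules, rose in 6 and fell in 3 of 11 tested members. Tuba1b was at 85.6, 83.8 and 85.7 in normal and 467, 502 and 302 in model libraries (limma log2 FC 2.27 ± 0.22, adjusted p = 0.000942). Tubb6 was at 123, 127 and 153 in normal and 732, 846 and 409.7 in model libraries (limma log2 FC 2.24 ± 0.27, adjusted p = 0.00183). Tuba4a went the other way, at 1695, 1480.5 and 2093 in normal and 768, 870.1 and 887 in model libraries (limma log2 FC -1.05 ± 0.17, adjusted p = 0.00393). Only 1 tubulin fell without model a, model b or normal a, or under equal sums. Kinesins, motors that walk on microtubules, rose in 9 and fell in 7 of 28, with 3 risen without model a and 3 without model b. The kinesin counts were 14 risen without library c of both groups, and 14 risen and 2 fallen under equal sums. Kif4, a motor of mitotic chromosomes, was at 2.14, 2.39 and 7.34 in normal and 54.2, 66 and 26.6 in model libraries (limma log2 FC 3.39 ± 0.61, adjusted p = 0.00597), whereas Kif3b, which serves transport along cilia and axons, was at 163, 187 and 217 in normal and 93.3, 79.6 and 75.4 in model libraries (limma log2 FC -1.18 ± 0.20, adjusted p = 0.00465). Genes of actin nucleation and bundling rose in 26 of 45, in 22 to 27 with 1 library left out, and fell in 3, or in 1 without model a, model b, normal a or normal b and in none under equal sums.

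Annexins, calcium-dependent membrane-binding proteins, rose in 7 of 10 with none fallen and a median of 1.82. Anxa2 was at 126, 247 and 214 in normal and 3350.4, 3276 and 2095 in model libraries (limma log2 FC 3.91 ± 0.29, adjusted p = 0.000518). Anxa5 was at 945, 1196 and 643 in normal and 2922, 3233 and 2245 in model libraries (limma log2 FC 1.62 ± 0.25, adjusted p = 0.00377). Both stayed called whichever library was left out. ADAM and ADAMTS proteases, which shed membrane proteins or cleave matrix, rose in 15 and fell in 2 of 22, with 8 risen without model a and 8 without model b, and 1 fallen without model a, model b, normal a or normal b or under equal sums. Adam8, a leukocyte protease, was at 11.8, 14.4 and 44.1 in normal and 603, 518 and 404 in model libraries (limma log2 FC 4.60 ± 0.46, adjusted p = 0.00111). Adamts5, an aggrecanase, was at 32.1, 44.3 and 8.57 in normal and 291, 245 and 145 in model libraries (limma log2 FC 3.17 ± 0.58, adjusted p = 0.00615). In the opposite direction Adam9 was at 1029, 1069 and 982 in normal and 339, 430.0 and 556 in model libraries (limma log2 FC -1.24 ± 0.19, adjusted p = 0.00348). Collagens rose in 13 of 27 (7 without model a, 8 without model b, 20 without library c of both groups) and fell in 2 (1 without normal c, none without model a, model b, normal a or normal b or under equal sums), led by Col3a1 among those called in every fit, at 203, 437 and 31.8 in normal and 9992, 9402 and 1969 in model libraries (limma log2 FC 5.31 ± 0.98, adjusted p = 0.0064). Stellate cell markers rose in 8 of 12 (4 without model a or model b), with sums of 1851 to 6143 in normal and 10278 to 12896 in model libraries, none at 0 in both groups, and their part in the collagen count was not tested.

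Genes of the centromere and mitotic spindle, which move chromosomes at cell division, rose in 36 of 50 tested members with a median of 2.06, and none fell. The count depended on single libraries: it was 20 without normal a, 16 without model a and 14 without model b, 39 without library c of both groups and 21 after quantile normalisation. Cdca3, a trigger of mitotic entry, was at 20.3, 18 and 28.1 in normal and 360.4, 454 and 140.1 in model libraries (limma log2 FC 3.65 ± 0.44, adjusted p = 0.00183). Tpx2, which activates Aurora A on the spindle, was at 6.42, 12 and 13.5 in normal and 194, 185 and 70.1 in model libraries (limma log2 FC 3.62 ± 0.49, adjusted p = 0.00241). Cdca8, a subunit of the chromosomal passenger complex, was at 6.42, 7.18 and 13.5 in normal and 87.7, 101 and 46.1 in model libraries (limma log2 FC 2.97 ± 0.46, adjusted p = 0.00369). Model c was the lowest model library for each, and still above every normal library. Ncapg2, a condensin II subunit, was at 32.1, 22.7 and 33 in normal and 118, 115 and 96.7 in model libraries (limma log2 FC 1.89 ± 0.27, adjusted p = 0.00275). Cenpa, the centromeric histone, was at 33.2, 47.9 and 33 in normal and 218, 241 and 123 in model libraries (limma log2 FC 2.29 ± 0.31, adjusted p = 0.00261). Of the 20 promoters holding TTTGAA, Cdca3, Cdca8 and Ncapg2 among them, 14 belonged to risen genes and 6 to genes that did not pass; 31 risen members had a promoter in the table.

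The proteasome, which degrades proteins tagged with ubiquitin, split by subunit type. Of 44 tested genes 28 fell and 6 rose, with a median of -0.66 that was -0.09 under equal sums, where 13 fell and 10 rose. Genes of the 19S cap, which recognises and unfolds substrates, and of its assembly made up most of the fallen genes. All 6 ATPase subunits fell (3 without normal a, 1 under equal sums). Of 14 non-ATPase genes, a group that includes the assembly chaperone Psmd9, 12 fell (11 to 12, and 9 under equal sums). Psmc1, an ATPase, was at 2659, 2597 and 2849 in normal and 768, 890.5 and 1247 in model libraries (limma log2 FC -1.51 ± 0.20, adjusted p = 0.0022). Psmd9, a chaperone of cap assembly, was at 1466, 1382 and 1411 in normal and 332, 349.6 and 640.3 in model libraries (limma log2 FC -1.75 ± 0.25, adjusted p = 0.00275). Psmd11, a scaffold of the lid, was at 1844, 1795 and 1797 in normal and 806, 784 and 676 in model libraries (limma log2 FC -1.27 ± 0.13, adjusted p = 0.00127). Psmd2, a receptor for ubiquitin-like domains, was at 2918, 2984 and 2694 in normal and 1105, 1090.2 and 1407 in model libraries (limma log2 FC -1.26 ± 0.16, adjusted p = 0.00206). The groups did not overlap in these, and all stayed called under equal sums.

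The 20S core, which cuts proteins, behaved differently by beta subunit. All 3 inducible beta subunits, which form the immunoproteasome and replace the constitutive catalytic ones, rose, in every fit without 1 library and under equal sums. Psmb8 was at 79.1, 96.9 and 171 in normal and 289, 242 and 299.8 in model libraries (limma log2 FC 1.32 ± 0.29, adjusted p = 0.0107), Psmb9 at 125, 229 and 212 in normal and 481, 402 and 498 in model libraries (limma log2 FC 1.33 ± 0.24, adjusted p = 0.0062). Psmb10 was at 222, 237 and 386 in normal and 702, 713 and 837 in model libraries (limma log2 FC 1.45 ± 0.22, adjusted p = 0.00356). Of the constitutive subunits they replace, Psmb5 and Psmb6 did not pass, at 539, 511 and 712 in normal and 489.6, 567 and 584 in model libraries and at 1861, 1634 and 2131 in normal and 1849.8, 2001 and 1915 in model libraries, while Psmb7, the counterpart of Psmb10, fell, at 1387, 1328 and 1147 in normal and 419, 479 and 568 in model libraries (limma log2 FC -1.40 ± 0.16, adjusted p = 0.00151). Fallen genes made up 5 of 8 alpha subunits and 3 of 7 beta subunits other than the inducible ones. Only 3 alpha subunits fell without model a, model b or normal a. Under equal sums 1 alpha subunit fell and 1 rose, and of these 7 beta subunits 1 fell and 3 rose. Psme1, of the 11S activator that works with the immunoproteasome, was at 938, 974 and 955 in normal and 1737, 1672 and 1668 in model libraries (limma log2 FC 0.82 ± 0.12, adjusted p = 0.00326). Psme2 was at 609.6, 604 and 756 in normal and 965, 1099 and 1050.1 in model libraries (limma log2 FC 0.67 ± 0.14, adjusted p = 0.0105; 0.0509 without model b, where 1 of the 3 risen 11S genes stayed called). Psme4, another activator, was at 2015, 1977 and 1586 in normal and 680.1, 669 and 821 in model libraries (limma log2 FC -1.36 ± 0.16, adjusted p = 0.00162). All 11 subunit promoters that held CCGGAAG, Psmc1 and Psmd2 included, belonged to fallen genes, of 23 fallen members with a promoter, and none to the 6 risen members. Over all genes tested 19.2% of fallen genes' promoters, 12.6% of risen ones and 19.5% of those that did not pass held it. The ISRE pattern was found in the promoters of Psme1, which rose, Psmd4 and Psmd9, which fell (Psmd4 was not called under equal sums), and Psmb3, which did not pass.

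**Figure D4:**
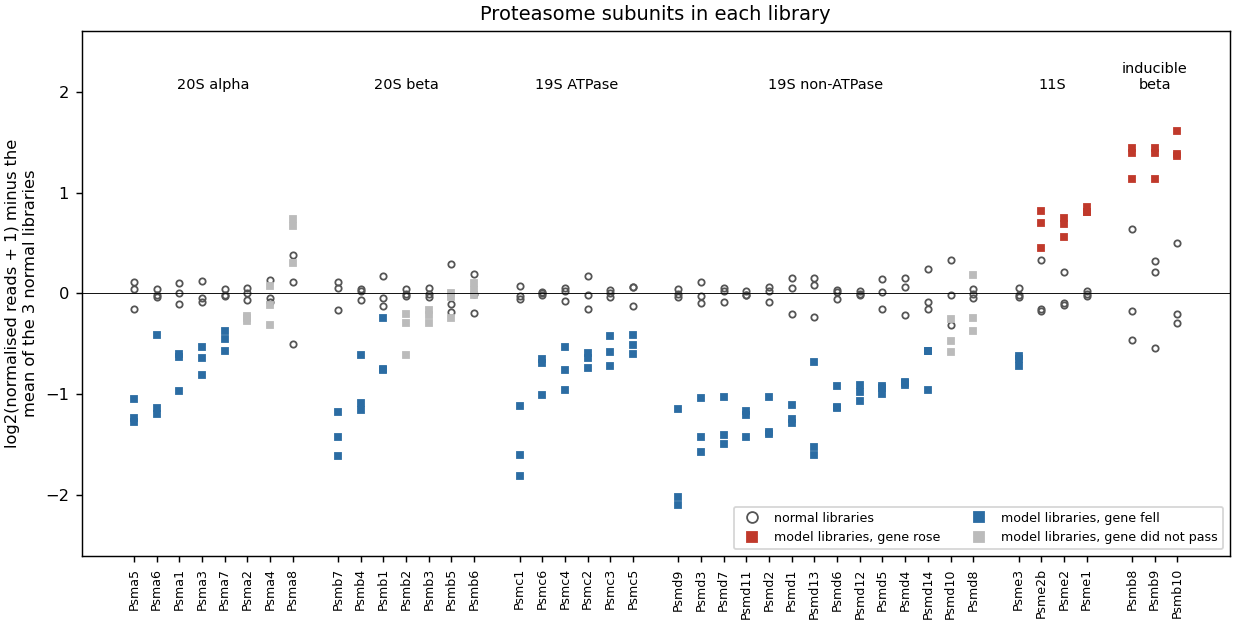
Log2(normalised reads + 1) of proteasome subunits in each library minus the mean of the 3 normal libraries, grouped by position in the complex; open circles are normal libraries and squares are model libraries, red where the gene rose, blue where it fell and grey where it did not pass. The model libraries of the 3 inducible beta subunits lie above the normal ones and those of the 6 cap ATPases below.

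Enzymes of the urea cycle and amino acid breakdown, a task of hepatocytes, fell in 28 of 40 tested members and rose in none, with a median of -1.19 (-0.62 under equal sums, where 13 fell). By pathway, all 4 genes of histidine breakdown fell. Hal, which takes the first step by removing ammonia, was at 5736, 5345 and 11637 in normal and 1272, 1902 and 1935 in model libraries (limma log2 FC -2.08 ± 0.33, adjusted p = 0.00407). Ftcd, which passes the carbon to folate, was at 6082, 6504 and 8567 in normal and 2596, 2886 and 3459.7 in model libraries (limma log2 FC -1.24 ± 0.22, adjusted p = 0.00612). Under equal sums 2 of the 4 stayed called. Tryptophan breakdown to kynurenine and beyond fell in 5 of 6 tested genes, with every library left out in turn, and in 4 under equal sums. Kynu, the kynureninase, was at 3946, 3076 and 3786 in normal and 924, 1349 and 949 in model libraries (limma log2 FC -1.76 ± 0.20, adjusted p = 0.00151). Afmid, which makes kynurenine, was at 264, 158 and 113 in normal and 34.3, 40.6 and 58.5 in model libraries (limma log2 FC -1.93 ± 0.36, adjusted p = 0.00658). Ido2 was at 756, 551 and 428 in normal and 72.6, 96.5 and 141 in model libraries (limma log2 FC -2.49 ± 0.29, adjusted p = 0.00166). Tdo2, which opens the tryptophan ring, was untested with group means of 49518 and 6045.

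Branched-chain amino acid breakdown fell in 9 of 13 genes, all 13 having a ratio below 0, and in 5 under equal sums. Bckdha, of the complex that commits these amino acids to oxidation, was at 737, 683 and 677 in normal and 156, 196 and 369 in model libraries (limma log2 FC -1.63 ± 0.29, adjusted p = 0.00582). Dbt, of the same complex, was at 1542, 1477 and 1705 in normal and 556, 777 and 709.5 in model libraries (limma log2 FC -1.22 ± 0.16, adjusted p = 0.00237). Got1, the cytosolic aspartate aminotransferase, was at 11196, 10047 and 24014 in normal and 1592, 2632 and 4508 in model libraries (limma log2 FC -2.39 ± 0.47, adjusted p = 0.00775), with normal c the highest of all libraries. In the urea cycle 4 of 6 genes were too abundant to resolve; Cps1, which admits ammonia to the cycle, had group means of 90292 in normal and 13971 in model livers, and Asl 31714 and 4942. All 6 had a ratio below 0, with a median of -1.40. Tyrosine and phenylalanine breakdown likewise had a median of -1.40, with 5 of 6 genes untested.

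Mitochondrial and peroxisomal oxidation fell in part. Acyl-CoA dehydrogenases and thiolases, the enzymes of fatty acid oxidation, fell in 13 of 21 tested members; the count was 6 without normal a, model a or model b, 8 without normal b and 19 without library c of both groups, and under equal sums 6 fell and 2 rose. Acadvl, which starts on very long chains, was at 3311, 3156 and 2664 in normal and 628, 507 and 1156 in model libraries (limma log2 FC -2.08 ± 0.29, adjusted p = 0.00275). Hadha, of the trifunctional protein, was at 8461, 7899 and 5444 in normal and 1714, 1926 and 3553 in model libraries (limma log2 FC -1.65 ± 0.32, adjusted p = 0.00767). Enzymes of the tricarboxylic acid cycle fell in 13 of 22 (6 without model b, 7 without normal a), and under equal sums 5 fell and 3 rose. Sdhd, an anchor of succinate dehydrogenase, was at 3372, 3595 and 3338 in normal and 886, 1146 and 1823 in model libraries (limma log2 FC -1.48 ± 0.26, adjusted p = 0.00538). Pdha1, of pyruvate dehydrogenase, was at 1145, 1036 and 849 in normal and 265, 332 and 559.6 in model libraries (limma log2 FC -1.45 ± 0.27, adjusted p = 0.00678). Model c was the model library nearest the normal group in each. Peroxins, which build peroxisomes, fell in 11 of 16 (6 without model a or model b, 7 without normal a, 3 under equal sums). Pex16, which inserts peroxisomal membrane proteins, was at 1656, 1793 and 1680.4 in normal and 443, 494 and 999.5 in model libraries (limma log2 FC -1.50 ± 0.29, adjusted p = 0.0075). Pex3, which works with it, was at 449, 558 and 388 in normal and 155, 161 and 251 in model libraries (limma log2 FC -1.32 ± 0.23, adjusted p = 0.00545).

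Of the respiratory chain genes, none of 15 tested ATP synthase subunits was called (5 of 38 complex I subunits fell), against 39.1% of all genes; at an unadjusted p under 0.05 the number was 2 for ATP synthase. Leaving out model c made 6 ATP synthase and 10 complex I subunits fall, and leaving out both c libraries 7 and 14. Conversely, 3 ATP synthase subunits rose under equal sums and 3 after quantile normalisation. Only 2 complex I subunits fell without model a, model b, normal a or normal b. The direction of complex I depended on the scaling: its median was -0.10 and, under equal sums, 0.47 with 15 risen and none fallen, and after quantile normalisation 4 rose and 3 fell. Ndufs1, its largest subunit, was at 1254, 1187 and 1089 in normal and 483, 604 and 749 in model libraries (limma log2 FC -0.96 ± 0.18, adjusted p = 0.00662; 0.0999 under equal sums). The 12 messenger RNAs encoded by mitochondrial DNA had ratios from -0.19 to 0.63 with a median of 0.23, and none of the 5 tested passed in limma (0 at an unadjusted p under 0.05, 3 risen under equal sums and 1 without normal b). Mitochondrial carriers, which exchange metabolites across the inner membrane, fell in 20 and rose in 5 of 38; 8 fell without model a or model b and 12 without normal a or normal b, 3 rose without model a or model b, and under equal sums 5 fell and 5 rose. Slc25a4, the adenine nucleotide carrier of muscle and heart, rose at 99.5, 86.2 and 90.6 in normal and 482, 438 and 272 in model libraries (limma log2 FC 2.06 ± 0.23, adjusted p = 0.00152).

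Enzymes of sterol, drug and fatty acid metabolism fell in part. Cytochromes P450 of sterol, steroid and retinoic acid metabolism fell in 5 of 9 and rose in 1 (3 fell without model a or model b, and under equal sums), with a median of -1.77. The fallen ones include Cyp26b1, of the same subfamily as Cyp26a1 below. Its call was lost in 4 of the fits that left out 1 library and under equal sums. Cyp7b1, which hydroxylates oxysterols, was at 4779, 3312 and 764 in normal and 174, 128 and 194 in model libraries (limma log2 FC -3.81 ± 0.61, adjusted p = 0.00396), with normal c well below the other normal libraries. Cyp27a1, of the same acidic route to bile acids, was at 7926, 6496 and 4368 in normal and 1746, 1348 and 2987 in model libraries (limma log2 FC -1.67 ± 0.34, adjusted p = 0.00902). The member that rose, Cyp26a1, which degrades retinoic acid, was at 6.42, 4.79 and 26.9 in normal and 55, 39.8 and 93.1 in model libraries (limma log2 FC 2.50 ± 0.66, adjusted p = 0.0211), with 0.0692, 0.0581, 0.0703 and 0.0522 when normal a, normal b, model a or model c was left out. UDP-glucuronosyltransferases, which conjugate drugs and bilirubin, fell in 10 of 15, and in 6 under equal sums; genes of the Ugt1a locus share exons, and Ugt2b genes are near-identical, so reads may be shared. Ugt3a1 was at 1405, 1063 and 554 in normal and 111, 159 and 290.0 in model libraries (limma log2 FC -2.44 ± 0.42, adjusted p = 0.0053). In the CYP4 family, the fatty acid omega-hydroxylases, 6 fell and 2 rose of 12, and 10 fell without library c of both groups. Cyp4f14 was at 1310.1, 1457 and 1291 in normal and 336, 390.2 and 547 in model libraries (limma log2 FC -1.70 ± 0.19, adjusted p = 0.00151), whereas Cyp4f18, a leukotriene-inactivating enzyme of leukocytes, was at 5.35, 10.8 and 12.2 in normal and 139, 108 and 73.6 in model libraries (limma log2 FC 3.39 ± 0.42, adjusted p = 0.002).

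Coagulation factors, plasma proteins made by hepatocytes, fell in 11 of 16 tested members with a median of -1.08, with 4 fallen without model a or model b, 5 without normal a or normal b and 2 under equal sums. F7, the starter of the extrinsic pathway, was at 1391, 1212 and 2169 in normal and 311, 359 and 831 in model libraries (limma log2 FC -1.76 ± 0.38, adjusted p = 0.0109). F13b, the carrier subunit of the clot stabiliser, was at 2664, 2264 and 2596 in normal and 521, 637 and 1227 in model libraries (limma log2 FC -1.75 ± 0.30, adjusted p = 0.00502). The cytosolic chaperonin, which folds actin and tubulin, fell in 5 of 8 subunits, in 3 without model b or normal a and in none under equal sums. Cct6a was at 2378, 2156 and 2055 in normal and 899, 1171 and 1220.3 in model libraries (limma log2 FC -1.01 ± 0.17, adjusted p = 0.00443; 0.0567 under equal sums). Autophagy genes fell in 18 of 33 (8 without model b, 9 without normal a, 10 without model a), with a median of -0.57 that became 0.003 under equal sums, where 2 fell. Atg9a, the membrane-seeding lipid scramblase, was at 229, 184 and 239.9 in normal and 97.3, 77.9 and 84.3 in model libraries (limma log2 FC -1.32 ± 0.19, adjusted p = 0.00303). Atg2b, which feeds lipid into the growing membrane, was at 502, 467 and 618 in normal and 214, 222 and 268 in model libraries (limma log2 FC -1.17 ± 0.16, adjusted p = 0.00275). Both stayed called in every fit without 1 library.

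Liver-enriched transcription factors fell in 14 of 29 tested members and rose in none, with a median of -0.65. The fallen count was 6 without model b, 8 without normal a and 9 without model a or normal b, and under equal sums the median was -0.08 with 3 fallen and 4 risen; 3 rose without library c of both groups. Tbx3, which marks hepatocytes near the central vein, was at 509, 573 and 422 in normal and 82.1, 58.4 and 186 in model libraries (limma log2 FC -2.36 ± 0.39, adjusted p = 0.00451). Prox1, a hepatoblast factor kept in adult hepatocytes, was at 1790.3, 1764 and 2451 in normal and 805, 857 and 1144 in model libraries (limma log2 FC -1.10 ± 0.20, adjusted p = 0.0062). Both were called whichever library was left out, and Tbx3, but not Prox1, under equal sums too. Translation initiation factors fell in 21 of 53 and rose in 2, with a median of -0.38 that turned to 0.19 under equal sums, where 13 rose and 3 fell. The fallen count was 11, 6, 10 and 13 without model a, model b, normal a and normal b, and 5 genes rose without library c of both groups. Eif2s3x, a subunit of the complex that brings the initiator transfer RNA, was at 689.8, 595 and 594 in normal and 157, 165 and 186 in model libraries (limma log2 FC -1.88 ± 0.14, adjusted p = 0.000552), past the median of its family. Cytosolic ribosomal proteins stood apart by their small changes, with 7 risen and 1 fallen of 75 and a median of 0.18. Of these genes 3, 3 and 4 rose without model b, normal a and normal b, and 8 fell without model c. Without library c of both groups 13 rose and 9 fell, and under equal sums or after quantile normalisation 46 rose and none fell. Rpl12 was at 2721, 2739.6 and 3050.0 in normal and 5088, 5554 and 5588 in model libraries (limma log2 FC 0.93 ± 0.17, adjusted p = 0.00658).

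Several families had members called in both directions, and they were named for this. Over all genes tested 20.2% rose and 18.9% fell. Shares risen and fallen were 28.6% and 28.6% for aldo-keto reductases and for Kruppel-like factors. They were 33.3% and 25% for receptor phosphatases and 25% and 25% for adhesion receptors. Kinesins, described above, were at 32.1% and 25%, so these splits lie not far from the mix over all genes. Aldo-keto reductases, which reduce aldehydes and steroids, rose in 4 and fell in 4 of 14; the 4 that rose did so without any 1 library, while the fallen count was 2, 1, 1 and 2 without model a, model b, normal a and normal b. It was 7 without library c of both groups and 1 under equal sums. Akr1b8 was at 40.6, 51.5 and 12.2 in normal and 149, 165 and 173 in model libraries (limma log2 FC 2.41 ± 0.49, adjusted p = 0.00874). Akr1b10 was at 19.3, 21.5 and 26.9 in normal and 131, 89.7 and 104 in model libraries (limma log2 FC 2.21 ± 0.28, adjusted p = 0.00214), both able to reduce lipid aldehydes. Akr1c19 was at 528, 454 and 459 in normal and 85.3, 127 and 166 in model libraries (limma log2 FC -1.97 ± 0.24, adjusted p = 0.00195). Kruppel-like factors also rose in 4 and fell in 4 of 14. Klf6, a factor of stellate cell and hepatocyte injury, was at 157, 196 and 312 in normal and 1332, 1546 and 1132 in model libraries (limma log2 FC 2.63 ± 0.26, adjusted p = 0.001). Klf9, a glucocorticoid-responsive factor, was at 4031, 3553 and 4674 in normal and 1443, 2113 and 1700.2 in model libraries (limma log2 FC -1.23 ± 0.20, adjusted p = 0.00444). Without model a or model b 1 factor rose and 2 fell, and without normal a 2 rose and 2 fell. The counts were 7 risen without library c of both groups and 1 fallen under equal sums.

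Receptor protein tyrosine phosphatases rose in 4 and fell in 3 of 12, with 2 risen without model b and 1 fallen without model a, model b or normal a. Their median of -0.31 became 0.26 under equal sums, where none fell. Ptprc, the leukocyte antigen CD45, was at 238, 140.0 and 283 in normal and 897, 741 and 723 in model libraries (limma log2 FC 1.88 ± 0.26, adjusted p = 0.00256). Ptprs, a receptor for matrix proteoglycans, was at 81.3, 49.1 and 47.7 in normal and 478, 380.1 and 212 in model libraries (limma log2 FC 2.53 ± 0.34, adjusted p = 0.00252). Ptprb, the endothelial phosphatase, was at 941, 1153 and 357 in normal and 299.8, 291 and 279 in model libraries (limma log2 FC -1.33 ± 0.39, adjusted p = 0.0313), a call lost without any library but normal c and under equal sums. Normal c already lay near the model level for Ptprb. Sinusoidal endothelial markers fell in 4 of 12 and rose in 1 (1 fell without model a, model b, normal a or normal b, 7 without normal c or without both c libraries, and none under equal sums), with sums of 5296, 6939 and 3280.1 in normal and 3979 to 4235 in model libraries, so normal c was below the model group. Adhesion G protein-coupled receptors rose in 4 and fell in 4 of 16, 2 and 2 of them without model a, model b or normal a, 2 fell without normal b and 1 under equal sums. Adgre5, the leukocyte antigen CD97, was at 109, 102 and 135 in normal and 407, 421 and 373 in model libraries (limma log2 FC 1.80 ± 0.16, adjusted p = 0.00088). Adgrf1 was at 56.7, 61 and 85.7 in normal and 23.1, 15.2 and 11.5 in model libraries (limma log2 FC -1.99 ± 0.37, adjusted p = 0.00678).

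Single genes of 4 further families are given next, chosen after their values were seen. Over all genes tested 20.2% rose and 18.9% fell. The risen count of the proton pump lies near that share, and the family counts here are a description only. Subunits of the vacuolar proton pump rose in 5 of 19 (2 without model b, 3 without model a, normal a or normal b, 15 under equal sums) with a median of 0.02, and 2 fell without library c of both groups, and Atp6v0d2, its osteoclast and macrophage isoform, was at 18.2, 20.3 and 187 in normal and 683, 582 and 733 in model libraries (limma log2 FC 3.96 ± 0.79, adjusted p = 0.0083). Among cathepsins, lysosomal proteases of which 5 rose and 2 fell of 13 (1 fell without model a, model b, normal a or normal c or under equal sums, 4 without library c of both groups), Ctsk was at 7.49, 8.38 and 1.22 in normal and 195, 133 and 122 in model libraries (limma log2 FC 4.72 ± 0.59, adjusted p = 0.00202). Tetraspanins rose in 9 of 24 (4 without model a, model b or normal a) and fell in 3 (2 without model a, model c, normal a or normal b, 1 under equal sums), and Cd63, of late endosomes, was at 54.5, 83.8 and 73.4 in normal and 3209, 3358 and 1584 in model libraries (limma log2 FC 5.19 ± 0.31, adjusted p = 0.000195). Galectins rose in 3 and fell in 2 of 6 (1 fell without model b, normal a or normal b, and none under equal sums), and Lgals3, the macrophage galectin, was at 149.7, 122 and 266 in normal and 5839, 5381 and 4732 in model libraries (limma log2 FC 4.96 ± 0.27, adjusted p = 0.000185). Each of these 4 genes was called in every fit without 1 library and had no overlap between groups.

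Some called genes were also neighbours in the genome. Over 12452 tested genes placed in the order of the GRCm38 annotation, 16 stretches of at least 5 adjacent tested genes rose together and 5 fell together. With 20.2% of all genes tested risen and 18.9% fallen, a random order would also hold some such stretches. Their number was not worked out, so the count of stretches is a description only. The longest risen ones held 9 genes each. On chromosome 17, H2-DMb1, Psmb9, Tap1, Psmb8, Tap2, H2-Ob, H2-Ab1, H2-Aa and H2-Eb1 formed one, joining antigen processing with class II presentation, and Tap2, a peptide transporter subunit, was at 137, 126 and 164 in normal and 398, 349.6 and 261 in model libraries (limma log2 FC 1.22 ± 0.20, adjusted p = 0.00461). The other, on chromosome 19, ran from Ms4a14 to Ms4a6d, and Ms4a14 went to a limma adjusted p of 0.0527 and 0.0521 without model a and model b. A stretch needs every member called, and stretches were not recounted with a library left out. The C-type lectin stretch on chromosome 6 had 7 genes, from Clec4a1 to Clec4e, and Clec4d within it was at 4.28, 4.79 and 15.9 in normal and 168, 196 and 168 in model libraries (limma log2 FC 4.47 ± 0.48, adjusted p = 0.00133). On chromosome 11 there were 5 Schlafen genes, of which Slfn1 was called in 3 of the 6 fits that left out 1 library. The longest fallen stretch, on chromosome 8, held 6 genes: Ddx19a, Ddx19b, Aars, Pdpr, Glg1 and Rfwd3. In another fallen stretch 5 Cyp2c genes lay side by side on chromosome 19. Of these, Cyp2c37 was called in 1 and Cyp2c50 in 2 of the 6 fits that left out 1 library. Many of these neighbours are duplicates of each other, among which reads may be shared.

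The 189 untested members carried 58.6% of the summed normal means. They were left untested because of a high normal mean, and a choice on that value by itself favours a lower model mean. The counts that follow are therefore a description and not a result about these genes. Of the 189, 177 had a lower model mean, 106 of those at least 2-fold, and 12 a higher one, none 2-fold, with a median ratio of -1.10. In 163 of them all 3 model libraries lay below the normal group mean. Mup7, a urinary protein, had group means of 107324 and 8.69, and the acute-phase protein Saa1 109240.0 and 1445; normal c was high in neutrophil genes, and how much it adds to the Saa1 mean was not tested. Serpina3k, a serum protease inhibitor, had means of 225718 and 17940.2. Gnmt, which consumes S-adenosylmethionine, had means of 26987 and 3578, its model libraries holding 2250.1, 2613 and 5872. Among the few that were higher, Igfbp2, a binding protein of insulin-like growth factors, had means of 13963 and 21086. These means have no replicate check on the normal side.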

How the data were processed

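RNA-seq libraries were made from total liver RNA, per the labels' protocols, with mm9 named as genome build in the submitters' processing notes; the aligner, the counter and its strand setting (not given in the sources used here) could not be checked, so overlapping genes may share reads. The deposited values are a normalised signal, per the file headers: group means of read counts divided by size factors with DESeq by the authors. Fold changes and p-values of that table were not used. The size factors were solved from the digits of the means (normal 0.935, 0.836 and 0.817, model 1.25, 1.18 and 1.13), and an exhaustive search over whole numbers gave 1 solution for 16185 of 16259 genes tried in the normal group and for every gene in the model group; means moved slightly gave none in 1500 of 1500 checks. Because the deposited columns are means and not counts, no count model was used.

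Normalised reads were compared on log2(value + 1) with limma 3.58.1 (trended variance, two-sided, Benjamini-Hochberg over 12466 genes, R 4.3.3). With 3 libraries against 3, an exact permutation test of a single value cannot go below 0.1. Tested on simulated data, the fit of model against normal recovered 19 of 50 genes changed by a log2 fold of 1, 38 of 50 at 2, 43 of 50 at 3 and 44 of 50 at 4. Only 50 of 12466 genes were changed at each size, whereas 39.1% were called in the data. The Benjamini-Hochberg cut-off depends on the share of changed genes, so these rates do not carry over to the data. Recovery at the share called in the data was not tested. Named genes were the 15 largest called changes in each direction. These had to have no overlap between groups and a mean of at least 100 normalised reads in the higher group. At most 2 genes per symbol stem, the letters before the first digit, were kept. Leading called members were also named for the 12 families with the highest shares risen and the 12 with the highest shares fallen. The 6 families split both ways and the 4 with fewest calls were added to these. Further genes were named after their values were seen to describe a pathway or a promoter. Members and gene lists were chosen with earlier results of these data known. Of the gene IDs, 16344 had a symbol and 30 had none. Promoters and the order of genes are from RefSeq and an annotation of GRCm38, used for names and sequence only. Alternatives covered the pseudocount, the filter, the scaling, the variance model, library weights and each library left out; equal sums and leaving out both c libraries were chosen after seeing the data. A few genes and 1 of the families with fewest calls are not reported here, and SAR libraries were not analysed here.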

Additional observations from a re-analysis of the deposited data

How the results depend on the processing

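Sample quality weights gave 4294 risen and 3963 fallen genes in place of 2514 and 2361, and the settings of pseudocount, filter, scaling and variance model, equal sums apart, kept both counts within 1.5 times. Leaving out 1 library at a time gave 1265 to 2871 risen and 1164 to 2880 fallen genes, from fewer libraries. With both groups scaled to the same sum, 5761 genes rose and 560 fell, 4124 group means were at least 2-fold higher and 370 at least 2-fold lower in the model group, against 2512 and 1187; the cause of the unequal sums was not tested. A minimum mean of 50 left 1372 group means at least 2-fold higher. Quantile normalisation kept 65.8% of the risen and 76.0% of the fallen calls. Of 184 named genes, 118 were called whichever library was left out. Over all settings of the named genes, 289 values lost the call, 2626 kept it and 1 changed sign: Ptprf, at -0.46 with the authors' size factors and 0.11 under equal sums. At the lowest depth, means of 10 to 30 normalised reads, 26% of genes were called as risen and 1.61% as fallen, and the part of depth in these shares was not tested. The normal group of the 189 untested genes, all abundant in normal liver, has no library values. No paired analysis was possible because the libraries recovered from the means carry no replicate number.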
